A study of Mus musculus with 24 samples.

Results

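A set of 12362 accessible regions held a peak in mature Cux2 neurons and in no other group of a mouse cortical series, out of 85867 regions in all (14.4%). The regions were defined by presence in peak lists. Peaks sharing 1 bp or more, from any of the 12 lists, were joined into regions, and a region was kept if it held a peak in both late Cux2 lists (P21 and P48), in none of the 4 early Cux2 lists (E18.5 to P7) and in none of the 6 Tle4 lists. Presence in the lists thus chose the members, and it is given below as a description without a test. Together these Cux2-only late regions spanned 8.43 Mb, with a median width of 650 bp (interquartile range 518 to 810 bp).

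The series profiled open chromatin by ATAC-seq, in which a transposase cuts accessible DNA, in 2 classes of pyramidal neuron sorted from the somatosensory and motor cortex of mice of both sexes (C57BL/6 in the labels, a mixed C57BL/6J background in the methods) at 6 ages. Cux2 CPNs are upper-layer callosal projection neurons, which connect the hemispheres and were labelled in Cux2-CreERT2:Ai14 mice. Tle4 CThPNs are deep-layer corticothalamic projection neurons, which project to the thalamus and were labelled in Tle4-2A-CreERT2:Ai14 mice. Each class was collected before birth (E18.5) and on the postnatal days P1, P3, P7, then P21 and P48, with 2 replicate libraries per age and 24 libraries in all. In all groups alike the tdTomato reporter of the Ai14 allele was switched on by 4-hydroxytamoxifen given to the pregnant dam, each library was a pool of animals, and labelled neurons were collected by FACS. According to the study's methods, the Cux2-CreERT2 line also labels interneurons, which single-cell sequencing found to be a small share of the labelled cells, and the papain used to dissociate tissue was more concentrated for P21 and P48 animals than for younger ones, so age and dissociation cannot be told apart below.

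The deposited lists pool the replicates of a group, so no value here has a replicate error, and the list is the unit wherever lists are compared. Lists held 6540 (Tle4 at P21) to 45649 peaks (Cux2 at P48). The lowest −log10 p admitted was 13.7 and 14.3 in the late Cux2 lists, 11.4 to 13.8 in the early Cux2 lists and 14.6 to 22.0 in the Tle4 lists. Library depths cannot be read from the files. Intervals beside shares of regions are 95% Wilson intervals. They stand for counting error alone, because regions of a list are not replicates.

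As background, most accessible sites away from promoters are candidate enhancers, stretches of DNA that are bound by sequence-specific transcription factors and can act on genes at a distance. Their openness is more particular to cell type and stage than that of promoters, many of which are CpG-rich and open in most cells. AP-1, a dimer of Fos and Jun family proteins, binds the letters TGACTCA or their reverse complement TGAGTCA, and several of its subunits are induced by synaptic activity in neurons. The E-box CAGATG, with reverse complement CATCTG, is the preferred site of NeuroD and Neurogenin factors, basic helix-loop-helix proteins of the pyramidal neuron lineage.

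To show what the regions look like at the level of DNA, the reference sequence of 240 bp around the summit, the point of highest signal, is printed for 10 of them (assembly NCBIM37, plus strand, 5′ to 3′). They are 4 of the 5 regions of greatest height, chosen by their percentile rank of fold enrichment, averaged over both late Cux2 lists, and the highest region assigned to Cux2 and to the leading gene of each of 5 gene lists. The remaining leading region lies over an annotated untranslated region and is not printed. The windows were chr4:19208573-19208812 (promoter of Cngb3), chr1:98086419-98086658 (intergenic), chr5:149955656-149955895 (intron of 5730422E09Rik), chr14:82644778-82645017 (intergenic), chr5:122366917-122367156 (Cux2), chr8:29960800-29961039 (Unc5d), chr6:144765928-144766167 (upstream of Sox5), chr10:98691034-98691273 (near Dusp6), chr14:24485745-24485984 (Kcnma1) and chr6:118762069-118762308 (Cacna1c). Capitals mark AP-1 and NeuroD/Neurogenin letters.
Cngb3 promoter region: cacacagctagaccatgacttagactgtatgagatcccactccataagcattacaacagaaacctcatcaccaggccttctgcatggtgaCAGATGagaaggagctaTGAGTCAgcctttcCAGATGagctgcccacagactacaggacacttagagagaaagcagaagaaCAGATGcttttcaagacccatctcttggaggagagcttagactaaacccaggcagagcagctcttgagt
chromosome 1 intergenic region: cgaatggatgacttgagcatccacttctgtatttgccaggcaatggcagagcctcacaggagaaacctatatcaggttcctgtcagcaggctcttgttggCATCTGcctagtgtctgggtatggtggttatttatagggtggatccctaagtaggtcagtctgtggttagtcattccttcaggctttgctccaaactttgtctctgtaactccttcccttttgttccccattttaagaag
5730422E09Rik intronic region: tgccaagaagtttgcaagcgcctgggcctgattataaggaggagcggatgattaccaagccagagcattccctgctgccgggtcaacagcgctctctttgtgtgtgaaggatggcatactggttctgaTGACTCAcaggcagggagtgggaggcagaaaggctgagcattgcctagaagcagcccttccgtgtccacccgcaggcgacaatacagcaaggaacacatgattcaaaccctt
chromosome 14 intergenic region: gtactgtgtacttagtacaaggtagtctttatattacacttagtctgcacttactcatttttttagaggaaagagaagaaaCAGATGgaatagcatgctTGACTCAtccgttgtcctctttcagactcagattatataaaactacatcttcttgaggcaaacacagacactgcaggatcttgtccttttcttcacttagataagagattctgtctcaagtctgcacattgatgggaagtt
Cux2 region: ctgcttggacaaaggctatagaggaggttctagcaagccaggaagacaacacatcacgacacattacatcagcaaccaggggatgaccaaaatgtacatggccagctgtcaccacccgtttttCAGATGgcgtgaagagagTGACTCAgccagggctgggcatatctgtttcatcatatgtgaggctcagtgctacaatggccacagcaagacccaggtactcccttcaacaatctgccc
Unc5d region: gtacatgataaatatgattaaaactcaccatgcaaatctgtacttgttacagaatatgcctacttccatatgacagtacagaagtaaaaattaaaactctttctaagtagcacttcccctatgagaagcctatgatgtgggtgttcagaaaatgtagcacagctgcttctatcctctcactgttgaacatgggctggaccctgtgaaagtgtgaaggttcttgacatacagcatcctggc
Sox5 region: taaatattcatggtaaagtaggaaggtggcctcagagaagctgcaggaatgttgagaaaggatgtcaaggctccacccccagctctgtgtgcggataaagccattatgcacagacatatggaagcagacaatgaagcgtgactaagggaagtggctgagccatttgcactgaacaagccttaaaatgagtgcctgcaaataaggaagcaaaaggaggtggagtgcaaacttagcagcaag
Dusp6 region: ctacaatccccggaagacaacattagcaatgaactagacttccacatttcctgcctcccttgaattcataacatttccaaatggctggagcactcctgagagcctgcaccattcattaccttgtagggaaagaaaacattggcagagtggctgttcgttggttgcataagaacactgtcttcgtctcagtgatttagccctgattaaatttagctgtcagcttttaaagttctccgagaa
Kcnma1 region: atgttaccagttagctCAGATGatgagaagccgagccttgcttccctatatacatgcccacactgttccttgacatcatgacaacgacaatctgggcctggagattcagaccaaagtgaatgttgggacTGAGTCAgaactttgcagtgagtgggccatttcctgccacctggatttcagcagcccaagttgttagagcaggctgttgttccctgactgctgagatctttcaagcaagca
Cacna1c region: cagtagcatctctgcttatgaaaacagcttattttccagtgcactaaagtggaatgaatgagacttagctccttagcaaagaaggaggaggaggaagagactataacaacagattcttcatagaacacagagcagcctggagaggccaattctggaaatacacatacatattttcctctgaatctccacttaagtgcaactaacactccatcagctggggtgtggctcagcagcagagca
AP-1 letters stood in 5 of these 10 windows, at 10 to 24 bp from the summit in each case. The windows of Cngb3, chromosome 14, Cux2 and Kcnma1 held both kinds of letters, and those at Unc5d, Sox5, Dusp6 and Cacna1c held neither.

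The heights of the regions were compared between both late ages. Within the P21 list the members had a median percentile rank of fold enrichment of 49.2 (interquartile range 23.5 to 73.5), and the other regions of that list had 51.0. Within the P48 list the members' median rank was 54.6 (28.5 to 76.6) against 48.7 for the others. Median fold enrichment, the ratio of signal at the summit to background as the authors' peak caller wrote it, was 9.63 at P21 and 9.48 at P48 in the members. The members were spread over the range of heights of either list, from a fold enrichment of 3.98 to 25.1 at P21 and 3.497 to 23.1 at P48. The ranks at P21 and P48 had a Spearman correlation of 0.682 over the 12362 regions, a description of lists that share the class. Of the members 7133 (57.7%) ranked higher at P48, and so did 58.95% of the other 18295 regions found in both late Cux2 lists.

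**Figure D1:**
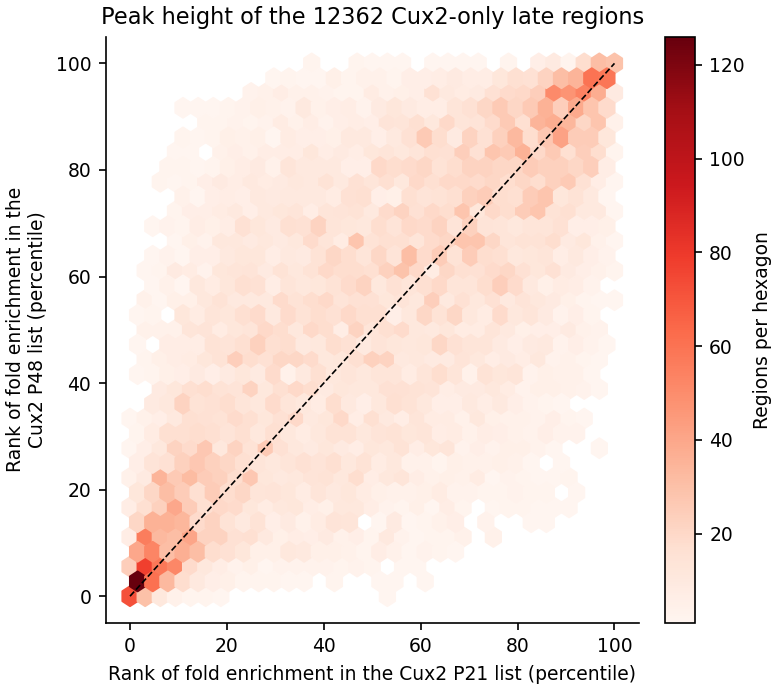
Percentile rank of fold enrichment of the 12362 Cux2-only late regions in the P21 list (horizontal axis) and the P48 list (vertical axis), with colour giving the number of regions per hexagon and the dashed line marking equal rank. Regions fill both axes, with medians of 49.2 at P21 and 54.6 at P48, and gather at the lower left and upper right corners.

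The region of greatest height was at chr4:19208428-19208931, 431 bp from a TSS of Cngb3, which encodes a subunit of the cone photoreceptor channel. Its fold enrichment was 25.1 at P21 and 22.3 at P48, and its −log10 p was 88.8 and 85.05. An intergenic region at chr1:98086077-98086718 followed, with 21.9 and 20.3, and it lay 521906 bp from the nearest coding TSS (St8sia4). The region at chr2:112472579-112473196, over an exon of Aven within Ryr3, which encodes a calcium release channel of the endoplasmic reticulum, had 21.1 and 19.4. An intronic region of 5730422E09Rik at chr5:149955451-149956074 had 19.3 and 20.5. An intergenic region at chr14:82644446-82645327, in a wide stretch whose nearest coding TSS was that of the protocadherin Pcdh17 at 2198043 bp, had 21.7 and 18.4.

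The next 5 regions by height had fold enrichments of 18.4 to 21.6 at P21 and 17.7 to 20.6 at P48. They were a promoter region of Akr1c18, a steroid-metabolising enzyme (chr13:4149682-4150334), intronic regions of the cadherin gene Cdh26 (chr2:178211886-178212395) and of Clptm1 (chr7:20226491-20227008), an intergenic region at chr4:7997608-7998310, and a region at the TSS of the transcript 1700025O08Rik (chr4:22865275-22865889). The last lay 449795 bp from Pou3f2, a POU transcription factor of upper-layer neurons and its nearest coding gene. Of the 10 leading regions, 3 were promoters, 3 intronic, 3 intergenic and 1 exonic, and 5 held AP-1 letters.

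At the lower end of the rule stood regions whose peak barely entered a list. The 3 weakest members of the P21 list, nearest to Stard13, Slc35f1 and Gm6994, each had a −log10 p of 13.7 and a fold enrichment of 7.48. The 3 weakest of the P48 list, nearest to Mettl15, Thrb and Mgst3, each had 14.3, with fold enrichments of 7.06, 7.06 and 5.61. Just outside the rule, the highest regions that failed it by 1 list were intronic ones nearest to Ifi202b, Ccdc91 and Ccdc46. They had fold enrichments of 21.4, 21.5 and 19.7 at P21, and each also held a peak of 10.8 to 13.8 fold in an early Cux2 list (P7, P7 and E18.5).

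Absence from a list means that no peak passed its limits, not that the site was closed. The limit of the Tle4 list of P21 was a −log10 p of 21.1, well above that of the Cux2 lists, and 4983 of the members (40.3%) exceeded this value at both P21 and P48. With peaks of every list held to a common −log10 p of 22.0 there were 5943 regions, and with lists cut to the 6538 strongest peaks there were 1293. Without the P21 Cux2 list the rule gave 20701 regions.

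The rule narrowed the regions step by step. Both late Cux2 lists shared 30657 regions, of which 15459 were in no early Cux2 list and 12362 also in no Tle4 list. A further 2103 regions failed by a single early Cux2 list, and for 1596 of them it was the P7 list, the latest of the early ages. By a single Tle4 list, 1199 regions failed at P48 and 122 at P21, and between 39 and 97 failed at each early age.

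The position of the members was compared with that of 3 other sets, which the rule did not use. Cux2-only early regions (7987) were in at least 2 early Cux2 lists and no other list, shared late regions (614) were in the 4 late lists of both classes and no early list, and Cux2-only spanning regions (2040) were in at least 2 early and both late Cux2 lists and in no Tle4 list. Members lay mostly far from genes' starts. Introns held 47.4% of them (95% interval 46.6 to 48.3), intergenic sequence 44.4%, promoters, within 1 kb of an annotated TSS, 5.41% (5.03 to 5.82), and exons 2.74%. Their median distance to a TSS was 25943 bp, and 53.9% lay 10 to 100 kb away.

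The promoter share of the members was below that of Cux2-only early regions (11.1%), with an odds ratio of 0.457 (two-sided Fisher's exact test, Benjamini-Hochberg adjusted over 9 tests, p = 1.71e-48). At equal list length this odds ratio was 0.120. The share was also below the 11.03% of Cux2-only spanning regions (odds ratio 0.462, Fisher's exact adjusted p = 4.54e-19). At the common −log10 p the second difference no longer passed (odds ratio 0.662, Fisher's exact adjusted p = 0.127), nor did it at equal list length (odds ratio 0.859, adjusted p = 0.850). Between members and shared late regions (6.03%, interval 4.40 to 8.20) no difference was detected, with an odds ratio of 0.892 and a Fisher's exact adjusted p of 0.588.

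Introns were a larger share of the members than of Cux2-only early regions (39.05%, odds ratio 1.41, Fisher's exact adjusted p = 9.98e-32) and of Cux2-only spanning regions (40.5%, odds ratio 1.32, adjusted p = 9.79e-09). At equal list length the odds ratio against spanning regions was 1.16 (Fisher's exact adjusted p = 0.850). Against shared late regions (49.5%) the odds ratio was 0.921 and the Fisher's exact adjusted p 0.412.

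**Figure D2:**
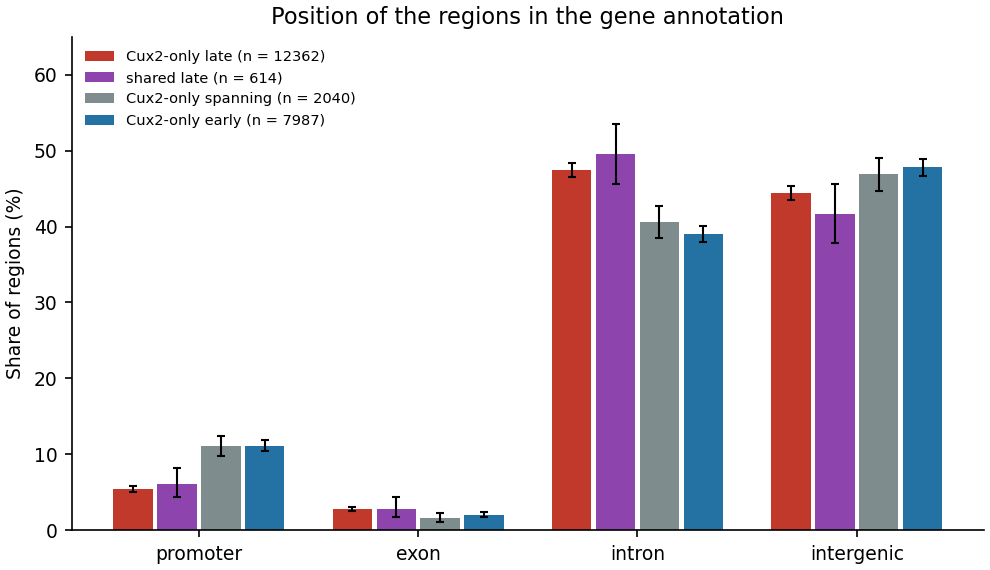
Share of regions (%) in promoters, exons, introns and intergenic sequence for Cux2-only late, shared late, Cux2-only spanning and Cux2-only early regions, with 95% Wilson intervals as bars. Promoters make up 5.41% of the Cux2-only late and 6.03% of the shared late regions, against 11.03% and 11.1% in the other sets.

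CpG-rich sequence was rare in the members. A window of 300 bp around the summit was called CpG-rich if its GC content was above 50% and its CpG observed/expected ratio, the count of CpG relative to that expected from C and G alone, was above 0.6. Only 65 members (0.526%, interval 0.413 to 0.670) were CpG-rich, against 6.39% of Cux2-only early regions (odds ratio 0.0775, Fisher's exact adjusted p = 7.53e-138) and 4.51% of spanning regions (odds ratio 0.112, adjusted p = 3.79e-38). Without the P21 Cux2 list the first of these odds ratios was 0.228, without the P48 Cux2 list 0.0496 and at equal list length 0.00278, and without the P3 Tle4 list the second was 0.0723, all in the same direction and past the threshold. Shared late regions had 3 such windows of 614 (0.489%, odds ratio 1.08, Fisher's exact adjusted p = 1.00). The direction of this last comparison changed with the processing, and at equal list length it passed with fewer CpG-rich members (odds ratio 0.0720, Fisher's exact adjusted p = 0.0235). Low CpG content did not mean low GC content, because the median GC content of the members was 45.7%, between that of Cux2-only early (43.0%) and shared late regions (47.0%). The median CpG ratio was 0.191 in members, 0.188 in shared late regions and 0.266 in Cux2-only early regions. Regions present in all 12 lists stood apart, with 67.4% CpG-rich windows and 81.2% promoters among 3175.

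Letters of 19 transcription factor motifs were then searched on both strands in the same 300 bp windows. A match is a description of the sequence and not evidence of binding. AP-1 letters had the widest gap in percentage points between members and Cux2-only early regions. They stood in 3421 of the members (27.7%, interval 26.9 to 28.5), in 35.3% (31.7 to 39.2) of shared late regions, in 9.51% (8.31 to 10.9) of Cux2-only spanning regions and in 4.02% (3.61 to 4.47) of Cux2-only early regions. Over all 85867 regions the share was 11.6%, and over the regions in all 12 lists it was 3.53%. The interval of the members lay wholly below that of shared late regions, so a high AP-1 share was not particular to the Cux2-only late regions.

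AP-1 letters were gathered at the summit. Within 30 bp of it the members held 225 matches per 1000 regions and 100 bp, and at 400 to 500 bp from it they held 19.4. Cux2-only early regions held 11.5 near the summit and 15.6 at that distance. With the members cut into 4 equal groups by mean rank, the share was 22.1% (20.7 to 23.6) in the lowest group, then 24.3% and 29.8%, and 34.45% (32.8 to 36.2) in the highest, while the promoter share went from 7.80% to 3.95%. Outside promoters the AP-1 share of members was 27.95%.

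Regions that missed the rule by 1 list showed where the AP-1 share changed. In regions of both late Cux2 lists and no Tle4 list it was 27.7% with no early Cux2 list, 12.3% with 1 such list, 9.73% with 2, 11.3% with 3 and 7.22% with 4. Regions that also held a peak in the P48 Tle4 list alone had 31.4% (28.8 to 34.0), and in the P21 Tle4 list alone 40.2% (31.9 to 49.0, 122 regions). Regions shared only with early Tle4 lists had 10.1% (701 regions). An early peak in either class went with a low share, and a late Tle4 peak did not.

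Because presence in the lists chose the members, the AP-1 share was also taken over the other peaks of each list, around each peak's own summit. For Cux2 the early lists had 4.37%, 4.05%, 4.59% and 4.73% in order of age, the P21 list 12.8% and the P48 list 12.4%. For Tle4 the early lists had 3.93%, 4.29%, 4.23% and 4.52%, the P21 list 10.4% and the P48 list 12.2%. Every late list was above every early list in both classes. The mean difference of late minus early lists was 7.63 percentage points, the most extreme of the 225 ways to place the stage labels within classes (two-sided exact permutation p = 0.00444, the smallest possible). With the 6538 strongest of these peaks in each list the difference was 9.23 points, with the same p. This comparison was chosen after the data were seen.

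**Figure D3:**
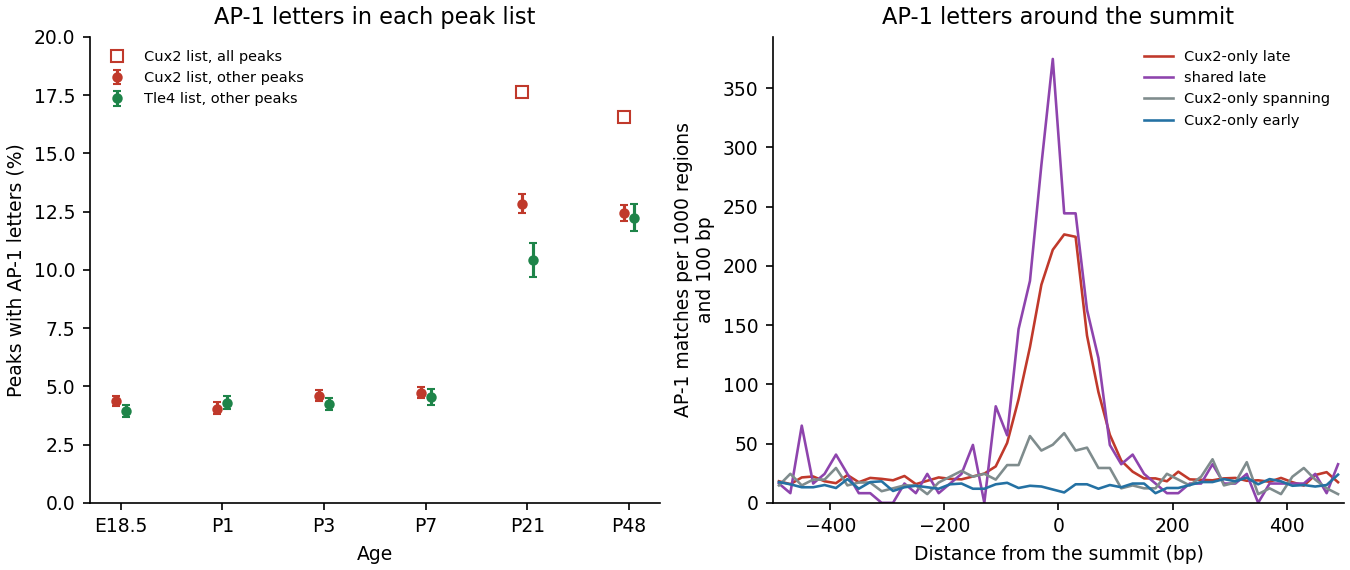
Left, share of peaks (%) with AP-1 letters within 300 bp around the summit in each list by age, for peaks outside the Cux2-only late regions (points, 95% Wilson intervals) and for all peaks of the late Cux2 lists (open squares). Right, AP-1 matches per 1000 regions and 100 bp by distance from the summit in bins of 20 bp, where the shared late and Cux2-only late regions rise at the summit and the Cux2-only early regions stay level.

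The NeuroD/Neurogenin E-box was the most frequent of the 19 motifs in the members, in 37.3% (36.5 to 38.2). The share was 37.5% in Cux2-only spanning, 34.7% (31.0 to 38.5) in shared late and 31.3% (30.2 to 32.3) in Cux2-only early regions, and 31.3% over all regions. It too was densest near the summit of members, at 236 matches per 1000 regions and 100 bp within 30 bp against 86.7 at 400 to 500 bp. Members with AP-1 letters held the E-box less often (33.2%, 31.6 to 34.7) than members without them (38.9%, 37.9 to 40.0).

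Other motifs were rarer in members than in Cux2-only early regions. The homeobox core TAATTA stood in 5.27% against 14.8%, the forkhead letters TGTTTAC in 2.45% against 5.51%, and the octamer-like POU site ATGCAAAT, read by factors such as Pou3f2, in 3.54% against 5.92%. Also rarer were the CTCF core AGGGGGCGC (0.0971% against 0.851%), the SP site GGGGCGGGG (0.599% against 2.28%) and the CRE letters TGACGTCA, bound by CREB (0.348% against 0.764%). Each of these last 3 contains a CpG, and the part of the lower CpG content given above was not tested.

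Some motifs were more frequent in the members. T-box letters AGGTGTGA stood in 1.78% (interval 1.56 to 2.03) of members, 1.30% of shared late, 0.588% of spanning and 0.376% of Cux2-only early regions. The ROR site TAGGTCA, read by orphan nuclear receptors such as RORB, stood in 2.35% of members, against 1.09% of Cux2-only early, 0.651% of shared late and 2.99% of spanning regions. The letters ATCGAT of the CUX/ONECUT site were rare in every set, in 0.275% of members and 0.476% of Cux2-only early regions. The class A E-box CAGCTG stood in 21.2% (20.5 to 21.9) of members and 23.55% (22.6 to 24.5) of Cux2-only early regions. The intervals of members and Cux2-only early regions overlapped for the NFI half-site TTGGCA (18.9% and 18.9%), the SOX site ACAATGG (3.92% and 3.69%) and the MEF2 site CTAAAAATA (1.54% and 1.74%).

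The remaining 4 motifs were the class B E-box CACGTG (3.21% of members), the RFX letters GTTGCCAT (1.21%), the EGR site GCGTGGGCG (0.0890%) and the SRF letters CCATATTAG (0.0647%). Over all 85867 regions, as a base for these shares, the homeobox core stood in 7.61%, POU in 3.79%, forkhead in 3.45%, SP in 3.57%, CRE in 0.938% and CTCF in 0.674%. T-box letters stood in 1.08% of all regions, ROR in 1.68%, CUX/ONECUT in 0.604%, the class A E-box in 19.55%, NFI in 21.04%, SOX in 2.99% and MEF2 in 1.63%. The class B E-box stood in 4.82%, RFX in 2.11%, EGR in 0.233% and SRF in 0.0815%. None of the 19 sets of letters contains another, so each match was counted for its own motif, though neighbouring matches may share bases.

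**Figure D4:**
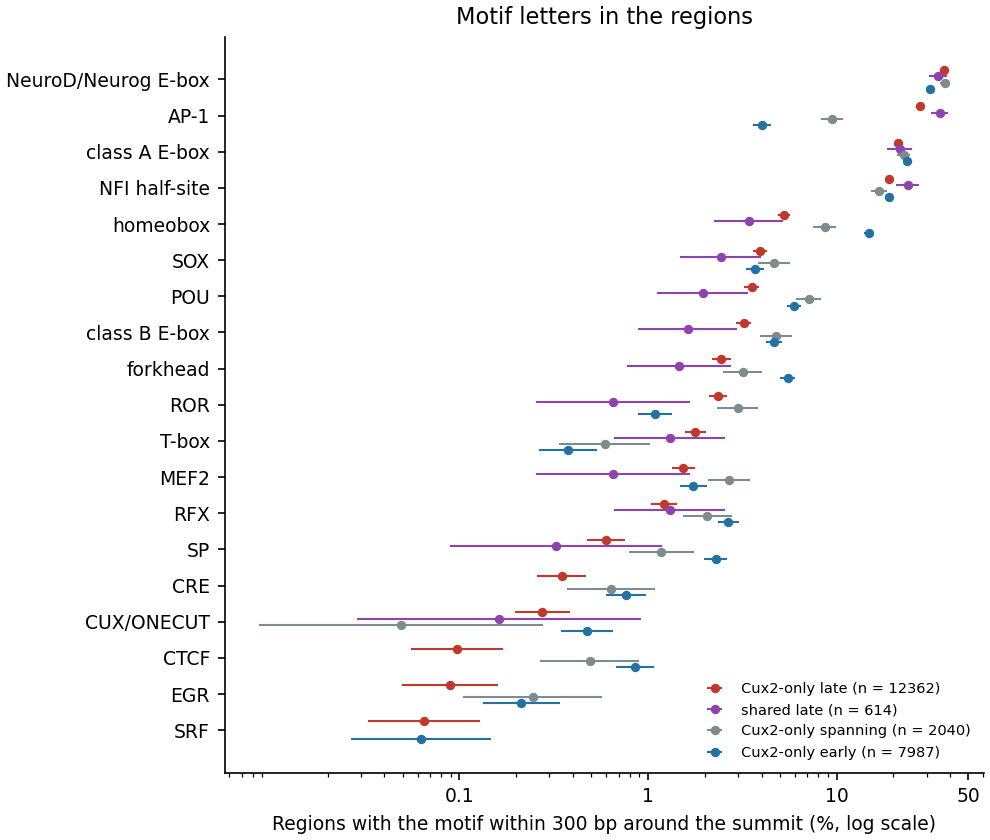
Share of regions with each of 19 motifs in the 300 bp around the summit (%, log axis) for the Cux2-only late, shared late, Cux2-only spanning and Cux2-only early regions, with 95% Wilson intervals and no point where no region matched. AP-1 separates the late sets (27.7% and 35.3%) from the early set (4.02%), and the homeobox motif is lower in Cux2-only late (5.27%) than in Cux2-only early regions (14.8%).

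Regions were then assigned to the nearest TSS of a protein-coding gene within 100 kb, which placed 8840 members (71.5%) at 5352 genes. Of all 22225 protein-coding genes tested, 24.1% had at least 1 member, and 161 (0.724%) had 5 or more. These counts moved with the lists. Genes with 5 or more members numbered 577 without the P21 Cux2 list, 304 without the P48 Cux2 list, 22 at the common −log10 p and 0 at equal list length, and genes with at least 1 numbered 3088 and 832 under the last 2 settings. Over every region assigned in this way, 13.9% were members, which is the level against which a gene's share can be read, since long genes with many regions have more room for members. Nearness does not show which gene a region acts on.

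The genes with the most members were counted next, and the 12 leading genes had 18 to 73 regions each in all. Dlg2, a postsynaptic scaffold protein, had 13 members among 65 regions (20.0%), and 6 of the 13 held AP-1 letters. Kcnma1, the pore-forming subunit of the BK calcium-activated potassium channel, had 12 of 32 (37.5%), and its own promoter held a peak in no list. Inadl, a polarity scaffold, had 11 of 18 (61.1%), the highest share of the 12 leading genes. Kalrn, a guanine nucleotide exchange factor of dendritic spines, had 11 of 48, Odz4, the adhesion receptor teneurin-4, 11 of 51, and Pde4d, a cAMP phosphodiesterase, 11 of 73 (15.1%, near the 13.9% of all regions). The remaining leading genes were Ppm1l (10 of 31), Mast4 (10 of 38), the receptor phosphatase gene Ptprd (10 of 38), the presynaptic adhesion gene Nrxn3 (10 of 44), Psd3 (9 of 28) and Elmo1 (9 of 39).

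The highest region among them was an intronic one of Pde4d at chr13:109981256-109981827, with fold enrichments of 20.3 at P21 and 16.5 at P48. At Kcnma1 the 12 members had fold enrichments of 6.42 to 14.2 at P21 and of 5.74 to 15.4 at P48. The lowest at both ages was at chr14:24406578-24407363, and the highest by mean rank (13.6 and 15.4) was at chr14:24485565-24486209, printed above. They filled the gene's body and 1 intergenic site, and 6 of them held AP-1 letters. At Mast4 the highest member, at chr13:103892494-103893195, had 12.7 and 13.7.

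Among upper-layer callosal identity genes, 12 of 16 had a member, against 24.1% of all genes. Of their 133 regions 26 were members (19.5%, interval 13.7 to 27.1, which spans the 13.9% of all regions). Unc5d, a netrin receptor of upper-layer neurons, had 7 of 18, with fold enrichments of 7.29 to 12.8 at P21 and 7.18 to 11.9 at P48. Rorb, a nuclear receptor of the middle layers, had 4 of 9, and Cux2 had 4 of 20. Ptn, Mdga1 and Otof were among those with none.

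At Cux2, the homeodomain gene that names the class, the highest member lay over an internal TSS at chr5:122366614-122367484, with fold enrichments of 15.1 at P21 and 12.9 at P48. It held AP-1, E-box and SOX letters. The other 3 were intronic, at chr5:122458030-122458517 (12.5 and 10.5), chr5:122493552-122493973 (8.85 and 10.2) and chr5:122359272-122359624 (7.90 and 8.93). A peak within 1 kb of a Cux2 TSS was present in 2 early and 2 late Cux2 lists and in no Tle4 list. The highest member is itself such a peak, so the rule fixed the presence in both late Cux2 lists.

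Corticothalamic and deep-layer identity genes had members too. A member lay at 7 of 13 genes, and 10 of their 107 regions were members (9.35%, interval 5.16 to 16.4), which spans the 13.9% of all regions. Sox5, a transcription factor of early-born deep-layer neurons, had 3 of 26, Etv1 2 of 8 and Crym, a thyroid hormone binding protein, 1 of 2. Tle4 itself, a corepressor, had 1 of 10, an intergenic region at chr19:14694940-14695452 that lay 22467 bp from its TSS and had fold enrichments of 9.94 at P21 and 14.2 at P48. Tbr1, Fezf2 and Bcl11b, regulators of deep-layer fate, had none.

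Activity-regulated genes had members at 7 of 20, with 13 of 110 regions (11.8%, interval 7.04 to 19.2, which spans the 13.9% of all regions). Dusp6, a MAP kinase phosphatase, had 3 of 7, the scaffold gene Homer1 2 of 7 and the synaptic pentraxin gene Nptx2 2 of 7. Fos, itself a subunit of AP-1, had 1 of 8 and is named here after its values were seen. No member lay at Fosb, Fosl2, Junb, Egr1, Npas4 or Nr4a1. Promoters of 17 of the 20 genes held a peak in a late Cux2 list, against 43.3% of all protein-coding genes, and this was not tested.

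Channel genes had members at most of their loci, against 24.1% of all genes. Of 40 potassium channel genes 29 had one, with 74 of 402 regions (18.4%, interval 14.9 to 22.5). Beside Kcnma1 these were led by Kcnj6, a G protein-gated inward rectifier (6 of 21), and Kcnd3, an A-type channel (4 of 21). Of 28 sodium and calcium channel genes 19 had one, with 39 of 227 regions (17.2%, interval 12.8 to 22.6, which spans the 13.9% of all regions). The leading genes were Cacna1c, an L-type calcium channel (4 of 14, at 8.08 to 11.9 fold at P21 and 8.54 to 11.3 fold at P48), Cacna1b, an N-type channel (4 of 18), and Cacng2, an AMPA receptor auxiliary subunit (3 of 5).

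Synaptic genes also had members at most of their loci, against 24.1% of all genes. The intervals of the region shares of these lists all spanned the 13.9% of all regions. A member lay at 20 of 31 glutamate receptor and postsynaptic scaffold genes, with 47 of 317 regions (14.8%, interval 11.3 to 19.2). They were led by Dlg2, the kainate receptor gene Grik2 (4 of 12) and the AMPA receptor gene Gria1 (4 of 16). GABA-A receptor subunits had one at 8 of 12 genes, with 18 of 86 regions (20.9%, interval 13.7 to 30.7), among them Gabra2 (4 of 18) and Gabrb2 (3 of 8). Synaptic vesicle and release genes had one at 17 of 27, with 31 of 211 regions (14.7%, interval 10.55 to 20.1). They were led by Bsn (3 of 11), Cplx2 (3 of 14) and Syt1, the calcium sensor of release (3 of 21).

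Genes of the neurofilament, axon initial segment and perineuronal list had members at 7 of 11, with 16 of 99 regions (16.2%). Ank3, ankyrin-G of the axon initial segment, had 7 of 38, Tnr, a matrix protein of perineuronal nets, 3 of 15 and Mapt, the microtubule protein tau, 2 of 7. Immature neuron genes had members at 3 of 15, with 6 of 85 regions (7.06%, interval 3.27 to 14.6). The growth-cone gene Gap43 held 4 of those 6, the others lay at Tubb2b and Crmp1, and Sox4, Sox11 and Dcx had none.

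The shares of genes in the neuronal lists were above the 24.1% of all genes in 9 of 10 lists, while the shares of their regions were 7.06% to 20.9%, on both sides of 13.9%. Among these 10 lists the interval lay wholly above 13.9% for potassium channels alone (14.9 to 22.5). Among the cell type marker lists below it did so for astrocyte markers, whose share of 27.1% (17.4 to 39.6) was the highest of all lists. Endothelial (25.9%) and oligodendrocyte lineage markers (21.4%) came next, with intervals that span 13.9%. The lists were written with earlier results known, and these counts were not tested.

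**Figure D5:**
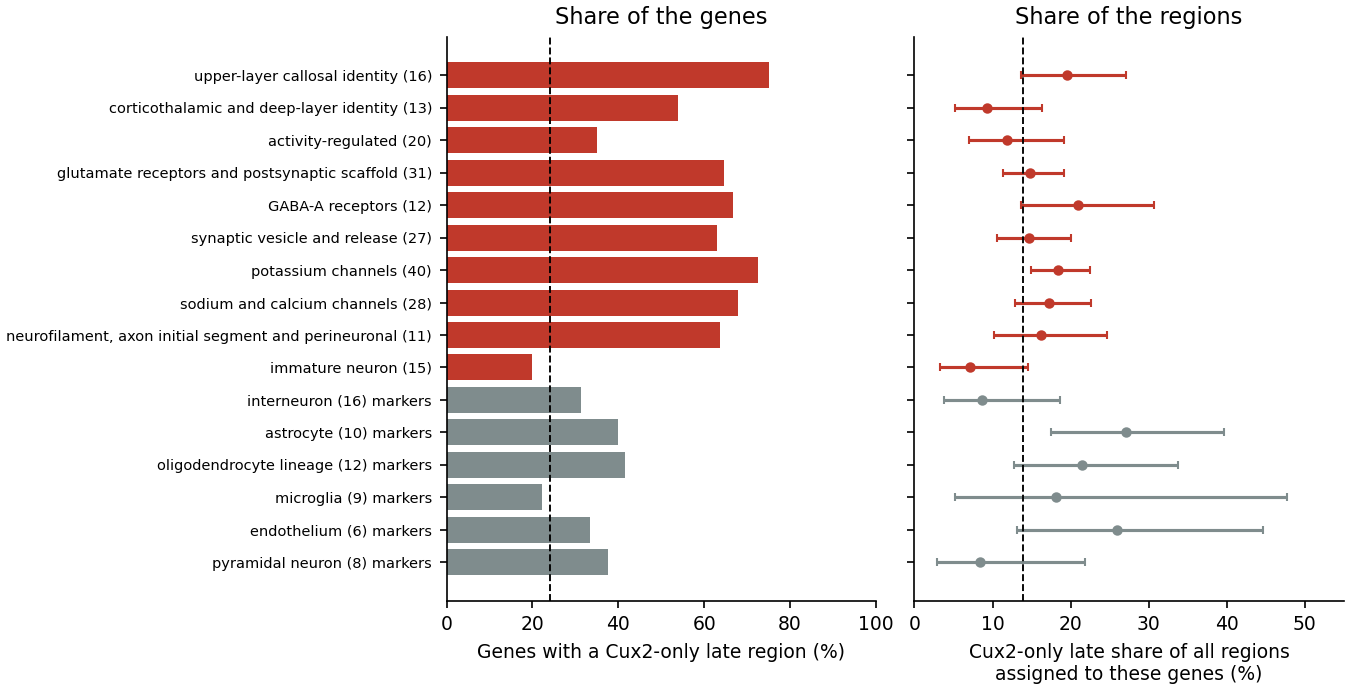
Left, share of the genes of each list (number in parentheses) with at least 1 Cux2-only late region within 100 kb (%), with the dashed line at the 24.1% of all protein-coding genes. Right, share of all regions assigned to these genes that are Cux2-only late (%), with 95% Wilson intervals and the dashed line at 13.9%, where neuronal lists (red) run from 7.06% to 20.9% and cell type marker lists (grey) from 8.33% to 27.1%.

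Markers of other cell types that a sort could carry were counted in the same way. Astrocyte markers had members at 4 of 10 genes, with 16 of 59 regions (27.1%, interval 17.4 to 39.6). These were Aldh1l1 (6 of 11), the glutamate transporter genes Slc1a2 (5 of 11) and Slc1a3 (4 of 21, 1 of them of mean rank 99.1) and Sox9 (1 of 5). Gfap, Aqp4, Gja1 and Fgfr3 had regions but no member, and Aldoc and S100b had no region assigned. Regions at all astrocyte markers numbered 19 and 29 in the late Cux2 lists, or 5.12 to 6.40 per 10000 regions of a list. They came to 4.65 to 5.51 per 10000 in the early Cux2 lists. The late Tle4 lists had 0 to 3.07, from 0 and 2 regions. By the rule, members count in both late Cux2 lists and in no other, so the choice of members is part of these rates. This holds for each cell type below. Oligodendrocyte lineage markers had members at 5 of 12 genes, with 7 of 19 at Mbp, and 0 at Olig1, Olig2, Sox10 and Mag. In all, 12 of the 56 regions at these markers were members (21.4%, interval 12.7 to 33.8, which spans 13.9%). Their regions came to 5.66 to 7.50 per 10000 in late Cux2 lists, 5.11 to 6.98 in early ones and 1.53 to 3.38 in late Tle4 lists.

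Endothelial markers had members at 2 of 6 genes, namely Cdh5 (6 of 15) and Flt1 (1 of 4, of mean rank 99.3). In all, 7 of their 27 regions were members (25.9%, interval 13.2 to 44.7, which spans 13.9%). Pecam1, Tek and Kdr had regions but no member, and Cldn5 had no region assigned. Endothelial marker regions came to 2.65 to 2.96 per 10000 in the late Cux2 lists against 1.86 to 2.98 in the early ones and 1.53 to 2.54 in the late Tle4 lists. Microglial markers had members at 2 of 9 genes (2 of 11 regions, 18.2%), C1qa (1 of 3) and P2ry12 (1 of 5). Csf1r, Cx3cr1, Aif1 and Itgam had no region assigned. Microglial marker regions came to 1.08 to 1.32 per 10000 in late against 0.341 to 1.03 in early Cux2 lists. The late Tle4 lists had 0.846 to 1.53, from 1 region each. Interneuron markers had members at 5 of 16 genes (5 of 58 regions, 8.62%), 1 each at Gad1, Sst, Dlx6 (mean rank 98.9), Erbb4 and Adarb2. Gad2, Slc32a1 and Vip had regions but no member, and Pvalb had no region assigned. Interneuron marker regions fell from 4.43 to 8.95 per 10000 in early to 2.96 to 3.31 in late Cux2 lists. In the late Tle4 lists they came to 1.53 to 2.54, from 1 to 3 regions. General pyramidal neuron markers had members at 3 of 8 genes (3 of 36 regions, 8.33%). A promoter peak in a late Cux2 list stood at 43.3% of all protein-coding genes and at 4 of the 8 pyramidal neuron marker genes. It stood at 3 of the 10 astrocyte marker genes (Aldh1l1, Slc1a2 and Gfap) and at 1 of 16 interneuron marker genes. The oligodendrocyte, microglial and endothelial ones had 0. At Aldh1l1 1 member was classed as a promoter, and the rule puts members in both late Cux2 lists, so the choice of members may be part of that count. The part of such cells in the set was not tested.

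Promoter peaks of the genes beside the members were then counted. Of 5012 genes with a member outside promoters, 62.9% held a promoter peak in at least 1 early Cux2 list, 52.7% in a late Cux2 list and 26.3% in a late Tle4 list. Among 10974 genes with other regions but no member these shares were 66.4%, 55.7% and 31.4%. These shares were thus alike in order in genes with and without a member. A promoter peak in late Cux2 lists and no other list was found at 3.69% (3.20 to 4.25) of the first genes and 2.05% (1.80 to 2.33) of the second. A promoter region in both late Cux2 lists and no other is itself a member. Genes without a member were therefore largely chosen to lack it, and the last 2 shares cannot be compared.

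Members lay a median of 44164 bp from the nearest other member, and 16.1% had one within 10 kb. The nearest region of an early Cux2 list was closer, at a median of 13396 bp and within 10 kb for 40.6%, and the nearest region of a late Tle4 list was at a median of 56293 bp. These distances depend on how many regions each list holds. Members made up 12.5% (chromosome 7) to 16.2% (chromosome 16) of the regions of each autosome and 13.1% of those on X.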

How the data were processed

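The data were 12 ATAC-seq peak lists, 1 for each class and age. The submitters' notes and the methods name Bowtie2 for alignment (mm9), Picard for removing duplicates and MACS2 for calling peaks, of which the authors kept those reproducible between replicates by IDR. No shift of read ends is stated. For each peak the deposited lists give the fold enrichment (a ratio of summit signal to local background), a −log10 p-value as MACS2 writes it and the summit offset. Read counts and depths were not used here. Peaks on chromosomes 1 to 19, X and Y were merged (1 bp overlap). Windows of 300 bp around the summit of the strongest peak of a region were read from NCBIM37, and 86955 TSSs from its GENCODE vM1 annotation. Largest peak ends fitted this build, with 1 peak past a chromosome end.

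Shares were compared by two-sided Fisher's exact tests, adjusted over 9 tests (SciPy 1.17.1, statsmodels 0.14.6), after the scripts were tested on simulated data. These treat regions as independent, so their p-values do not measure replicate error. The 10 leading regions had the greatest percentile ranks of fold enrichment, averaged over P21 and P48. Named genes were the 12 with the most members, the 3 leading genes of each list, Cux2 and Tle4. Some genes that this rule or a list holds are not reported here. Genes named for having no member, Fos and individual cell type markers were chosen after their values were seen. Members and lists were chosen with earlier results of these data known.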

Additional observations from a re-analysis of the deposited data

How the results depend on the processing

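Of 246 values under other settings, 213 kept their direction and side of the threshold or stayed within the spread set for them. The cause of the changes below was not tested, except that stricter lists hold fewer peaks by construction. At a common −log10 p there were 5943 members, a promoter share of 4.53%, an AP-1 share of 28.55%, 3088 genes with at least 1 member and 22 with at least 5, and the odds ratio was 0.662 (adjusted p by Fisher's exact test 0.127) for promoters against spanning regions and 0.3595 for CpG-rich windows against shared late regions. At equal list length there were 1293 members, 4.02%, 29.6%, 832 genes and 0 genes, and odds ratios of 0.859 (promoters) and 1.16 (introns) against spanning regions and 0.0720 (CpG-rich) against shared late regions. No odds ratio could be had there for CpG-rich windows against spanning regions. With peaks covering 50% of a region the odds ratio for CpG-rich windows against shared late regions was 0.718. The promoter share was 3.62% within 500 bp of a TSS and 4.20% for coding TSSs, where the odds ratio against shared late regions was 1.24. Genes with at least 5 members numbered 505 without a distance limit and 79 within 50 kb, and the AP-1 share in 200 bp was 25.5%.

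Leaving out 1 list in turn gave 12389 to 20701 members (the most without the P21 Cux2 list), promoter shares of 4.79% to 6.94%, AP-1 shares of 24.7% to 28.0%, and 161 to 577 genes with at least 5 members (577 without the P21 and 304 without the P48 Cux2 list). Odds ratios against shared late regions were 0.815 to 1.17 for promoters (1.17 without the P21 Cux2 list) and 0.861 to 1.92 for CpG-rich windows, which fell below 1 without the E18.5 Cux2 list (0.926) and the P7 Tle4 list (0.861). The AP-1 difference between late and early lists was 7.18 to 8.09 points. No paired analysis was possible because the lists pool both replicates and give no value per replicate. For the same reason no replicate could be left out, and absence from a list depends on its limit and length.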
